A study of Mus musculus with 4 samples.

Results

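Hcar2, Irg1 and Tgm1 are 3 protein-coding genes that the deposited tables list at an FPKM of exactly 0 in both reference libraries of the study and above 0 in both libraries set against them. FPKM counts fragments per kilobase of a transcript and per sequencing depth. They are 3 of 19175 genes in either table, and 3 of 598 genes that follow the same rule among the 8539 genes in both tables. The rule used the levels themselves, so the levels below are a description with no test.

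The study sequenced RNA of the prelimbic cortex, part of the medial prefrontal cortex, from 8-week C57BL/6 mice, with 1 library in each of 4 groups. The first pair comes from chronic social defeat, in which mice are exposed repeatedly to an aggressor: Control against Susceptible, a name for mice that avoid social contact afterwards. Control carries the same stress label as Susceptible, so the labels do not settle how the control mice were treated. The second pair received adeno-associated virus (AAV) that carried green fluorescent protein (AAV-GFP) or the chromatin corepressor CDYL (AAV-CDYL). The sources used here give neither the promoter in the virus nor whether a library came from 1 mouse or a pool. Cdyl itself was listed at 2.68 FPKM in AAV-GFP and at 1052 FPKM in AAV-CDYL, which goes with the virus labels. Cortical neuron genes were high, with Camk2a at 665 and 395 FPKM and Slc17a7 at 803 and 568 FPKM in AAV-GFP and AAV-CDYL. The FPKM steps of low genes gave an effective depth between 15600000 fragments, in Control, and 25700000, in AAV-CDYL. With 1 library per group there is no replicate error for any difference, and no test was run.

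Hcar2 encodes a receptor on the cell surface that couples to inhibitory G proteins and is activated by niacin and by the ketone body beta-hydroxybutyrate. It is known from fat cells and from macrophages, neutrophils and microglia. Irg1, now named Acod1, encodes the mitochondrial enzyme that takes cis-aconitate out of the citrate cycle and decarboxylates it to itaconate. Macrophages and microglia make it after endotoxin or interferon, and itaconate inhibits succinate dehydrogenase and acts on KEAP1, the inhibitor of NRF2. Tgm1 encodes the transglutaminase of keratinocytes, which links glutamine to lysine residues in the cornified envelope of the skin; in humans its loss causes lamellar ichthyosis.

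On mm10, Hcar2 (ENSMUSG00000045502) lies on the minus strand of chromosome 5 at 123863570 to 123865499 and has 1 exon and 1 transcript of 1930 bases, with UTRs of 789 and 61 bases. Irg1 (ENSMUSG00000022126) lies on the plus strand of chromosome 14 at 103046977 to 103056573 and has 5 exons and 1 transcript of 2623 bases. Tgm1 (ENSMUSG00000022218) lies on the minus strand of the same chromosome, and its longest transcript, with 15 exons, spans 55700009 to 55713492. It has 6 annotated transcripts of 558 to 2852 bases, and starts further upstream are annotated at 55713494 and 55713926. Of its 3162 exonic bases, 182 (5.76%) overlap exons of the antisense gene Gm49067, and the kit does not mark strand, so reads there cannot be told apart. None of the 3 genes shares a Cuffdiff locus with another listed gene.

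**Figure D1:**
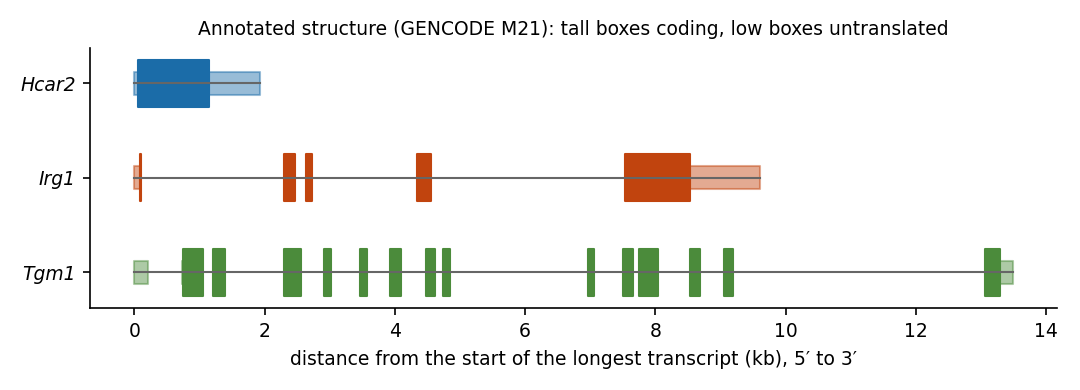
Longest annotated transcripts of Hcar2, Irg1 and Tgm1, drawn to scale in kb from their start (5′ at the left), with coding parts as tall boxes, untranslated parts as low boxes and introns as lines. Hcar2 has 1 exon, Irg1 5 and Tgm1 15.

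The promoters of Irg1 and Tgm1 are shown because both genes are listed at 0 in the same libraries and their upstream letters can be compared. The RefSeq windows (GRCm38.p6) of both run from 250 bases before to 50 bases after the start site, and their first 245 and 280 bases follow, 5′ to 3′. They lie at chr14:103046762-103047006 on the plus strand and chr14:55713463-55713742 on the minus strand. Capitals mark every match, on either strand, of 7 motifs: the TATA box as TATAAA, the core of interferon regulatory factor sites as AANNGAAA, the interferon-stimulated response element as GAAA, any 2 bases and GAAA, the Ets core as GGAAGT, the PU.1 core as GAGGAA, the AP-1 site as TGANTCA and the GC box as GGGCGG.
Irg1: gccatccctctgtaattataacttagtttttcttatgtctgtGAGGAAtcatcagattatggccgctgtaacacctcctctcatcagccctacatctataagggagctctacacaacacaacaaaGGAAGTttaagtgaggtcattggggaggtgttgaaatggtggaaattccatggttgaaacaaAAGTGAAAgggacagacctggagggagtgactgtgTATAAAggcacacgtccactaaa
Tgm1: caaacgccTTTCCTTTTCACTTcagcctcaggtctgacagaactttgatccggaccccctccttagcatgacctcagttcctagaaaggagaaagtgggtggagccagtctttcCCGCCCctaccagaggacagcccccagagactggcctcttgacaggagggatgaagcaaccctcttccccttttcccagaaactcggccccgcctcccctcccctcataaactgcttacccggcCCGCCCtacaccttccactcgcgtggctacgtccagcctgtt
Positions count from the RefSeq start site, which in Irg1 lies 35 bases past the GENCODE start. The Irg1 window holds a TATA box from -28, an interferon regulatory factor core from -63, an Ets core from -125 and a PU.1 core from -208. The Tgm1 window holds, on the other strand, an interferon-stimulated response element from -242, which overlaps cores from -242 and -236, and GC boxes from -136 and -12. A second RefSeq window of Tgm1 (chr14:55713039-55713338) holds none of the 7. Of 32851 RefSeq windows of the same length, 23.9% hold the interferon regulatory factor core, 3.44% the interferon-stimulated response element, 13.6% the TATA box, 23.8% the Ets core, 28.3% the PU.1 core, 35.7% the GC box and 7.81% the AP-1 site. These matches are letters only.

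Hcar2, the receptor, was listed at 0 FPKM in Control, 0.820 in Susceptible, 0 in AAV-GFP and 3.47 in AAV-CDYL. About 34 fragments stood behind the Susceptible value (95% exact Poisson interval of the level 0.569 to 1.15 FPKM) and about 149 behind the AAV-CDYL value (2.94 to 4.08 FPKM). A count of 0 allows up to 3 fragments, which for Hcar2 is 0.117 FPKM in Control and 0.0742 FPKM in AAV-GFP. At the level of the library it was set against, Control would have held about 21.1 fragments of Hcar2 and AAV-GFP about 140. Intervals and limits cover counting error only, and PCR copies are not independent molecules.

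Irg1, the enzyme, was listed at 0 FPKM in Control, 1.07 in Susceptible, 0 in AAV-GFP and 3.19 in AAV-CDYL. The values rest on about 63 fragments in Susceptible (0.826 to 1.38 FPKM) and about 194 in AAV-CDYL (2.76 to 3.68 FPKM). The limits at a count of 0 were 0.0821 FPKM in Control and 0.0523 FPKM in AAV-GFP. Of the 3 genes, Irg1 had the highest level in Susceptible and lay between the other two in AAV-CDYL.

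Tgm1, the cross-linking enzyme, was listed at 0 FPKM in Control, 0.581 in Susceptible, 0 in AAV-GFP and 2.99 in AAV-CDYL. On its longest transcript these levels are about 37 fragments in Susceptible (0.405 to 0.793 FPKM) and about 199 in AAV-CDYL (2.59 to 3.43 FPKM). The limits were 0.0748 FPKM in Control and 0.0476 FPKM in AAV-GFP. It was the lowest of the 3 genes in both libraries. In bulk tissue, fewer cells of a type and less RNA per cell cannot be told apart, for this gene as for the others.

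**Figure D2:**
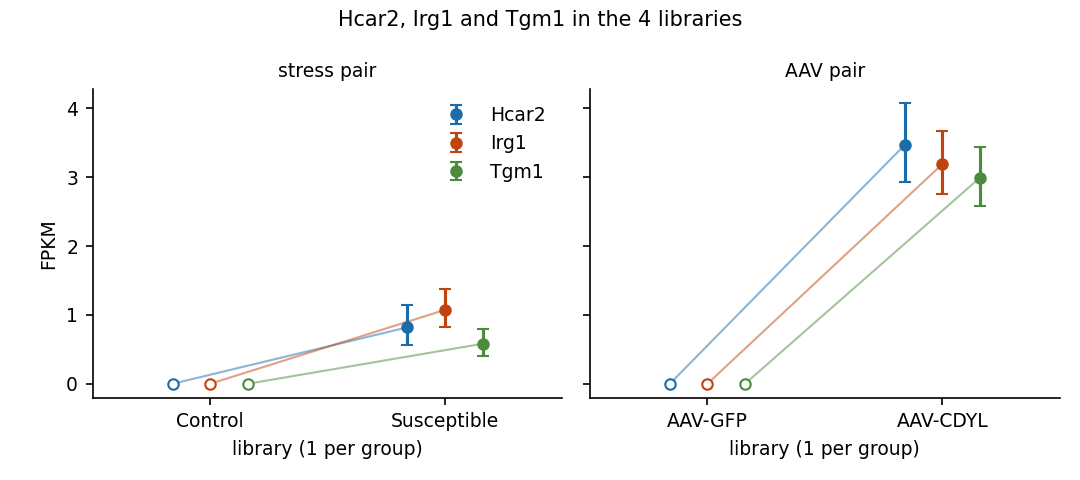
FPKM of Hcar2, Irg1 and Tgm1 in each of the 4 libraries, with 95% exact Poisson intervals on the approximate fragments (counting error only). All 3 genes are listed at 0 in Control and AAV-GFP, between 0.581 and 1.07 FPKM in Susceptible, and between 2.99 and 3.47 FPKM in AAV-CDYL.

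Within Susceptible, the level of Tgm1 was 0.542 times that of Irg1 (95% interval 0.351 to 0.825) and the level of Hcar2 was 0.764 times that of Irg1 (0.488 to 1.18). The interval for Tgm1 lies below 1, while that for Hcar2 includes 1. Within AAV-CDYL the ratios to Irg1 were 0.938 for Tgm1 (0.766 to 1.15) and 1.09 for Hcar2 (0.872 to 1.35), and both intervals include 1. The order of the 3 levels in AAV-CDYL is therefore within counting error. The tables were normalized separately; side by side, AAV-CDYL held 4.23 times the Susceptible level of Hcar2 (2.90 to 6.33), 2.97 times that of Irg1 (2.23 to 4.02) and 5.15 times that of Tgm1 (3.61 to 7.53).

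Among the listed genes above 0, all 3 lay near the middle of the levels. The median of those genes was 0.617 FPKM in Susceptible and 1.49 FPKM in AAV-CDYL. Genes that differ little between the libraries are not listed, so the place of the 3 among all expressed genes is not known. In Susceptible, 53.6% of the listed genes above 0 were lower than Hcar2, 56.9% lower than Irg1 and 49.1% lower than Tgm1. In AAV-CDYL these shares were 59.8%, 58.9% and 58.1%. On the log2(FPKM + 1) scale, which understates differences of low genes, Susceptible minus Control was 0.86 for Hcar2, 1.05 for Irg1 and 0.66 for Tgm1. AAV-CDYL minus AAV-GFP was 2.16, 2.07 and 2.0.

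A gene is called higher or lower by size here if the libraries were 1.5-fold or more apart on the log2(FPKM + 1) scale and at least 1 of them reached 1 FPKM, the floor. By that rule 1 of the 3 genes, Irg1, was higher in Susceptible, beside 18.9% of 5334 genes at that floor, since the other two did not reach it. All 3 were higher in AAV-CDYL, beside 31.3% of 8047 genes. Over the same genes 10.8% and 14.4% were lower in the respective pairs. These are listed genes, and genes above 0.001 FPKM in both libraries are listed only where they differ by at least 0.32 (log2). The shares over all genes at the floor are not known. Counts were 1006 higher and 575 lower in the stress pair and 2516 and 1159 in the AAV pair; after centring on the median difference they were 532 and 1918, and 1630 and 3572. The members were chosen on these contrasts, so nothing is read from their share.

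The zero rule itself is common among low genes. In the stress pair 19.3% of 12318 genes were listed at 0 in Control and above 0 in Susceptible, and in the AAV pair 16% of 15396 genes were listed at 0 in AAV-GFP and above 0 in AAV-CDYL. Both held for 7% of the 8539 shared genes. The reverse held for 6.47% and 6.81% of genes, and for 1.37% in both pairs. All these shares are over listed genes, which leave out genes that differ little, so the shares over all genes are not known. Control was the shallowest library, at 15600000 fragments against 24800000 in Susceptible, and the part of depth in the stress count was not tested; AAV-GFP and AAV-CDYL lay closer, at 24500000 and 25700000.

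Most of the 598 genes rest on few fragments. The median gene of the 598 stood at 0.0641 FPKM in Susceptible and 0.0959 FPKM in AAV-CDYL, or about 2.0 and 2.92 fragments. At least 10 fragments in both libraries were found for 33 genes and at least 30 for 6. These 6 are Hcar2, Irg1, Tgm1, the immune receptor gene Lilrb4a, the T-cell adaptor gene Trat1 and the small nuclear RNA Gm23971, named after their values were seen. Lilrb4a lies in a locus shared with another gene. Gm23971 is too short for the fitted fragment length, so its fragments rest on an assumed minimum length. Its place among the 6, and above Irg1 in Susceptible, is therefore uncertain. The authors' deposited table calls neither Gm23971 nor Trat1 at q under 0.05 in either pair. By fragments in Susceptible, Irg1 ranked 4th, Tgm1 6th and Hcar2 9th of the 590 genes with a length, and in AAV-CDYL 16th, 15th and 19th. By FPKM they ranked 24th, 46th and 32nd of the 598 in Susceptible and 27th, 29th and 26th in AAV-CDYL.

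Leaving aside predicted genes without a name of their own and immunoglobulin genes, the 10 genes of the 598 with the highest level in the lower of the 2 libraries were Rn7s6, Ccl12, Ccl4, Ccl19-ps3, Ccdc153, Hist1h3i, Irg1, Hist1h2aj, Lilrb4a and Hist1h3h. Among those left aside, Igkc, an immunoglobulin light chain gene, was listed at 3.92 FPKM in Susceptible and 1407 in AAV-CDYL. In the AAV pair its locus is shared with another gene. Ccl4, a chemokine, was listed at 2.24 FPKM in Susceptible and 6.06 in AAV-CDYL. Ccl12, another chemokine, was listed at 2.37 and 37.0 FPKM. Histone genes such as Hist1h3i (1.11 and 4.47 FPKM) are near-identical copies, and their fragments cannot be assigned with certainty.

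**Figure D3:**
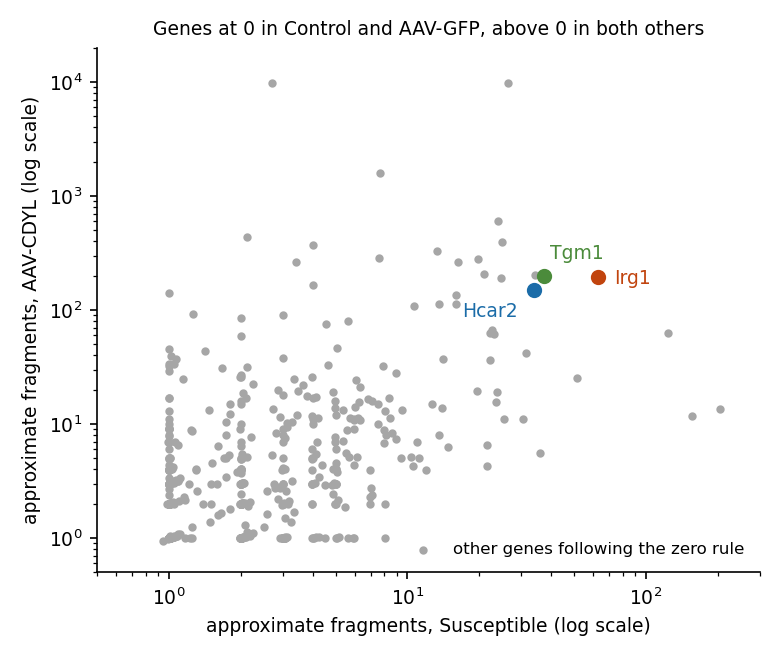
Genes listed at 0 in Control and AAV-GFP and above 0 in both others, by approximate fragments in Susceptible (horizontal) and AAV-CDYL (vertical), both on log axes, for 570 of the 590 genes with a length; the other 20 are under 0.5 fragments in at least 1 library. Hcar2, Irg1 and Tgm1 lie at 34 to 63 fragments in Susceptible and 149 to 199 in AAV-CDYL, above the medians of 2.0 and 2.92. Fragments of very short genes rest on an assumed minimum length.

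Just outside the rule are genes with a trace in a reference library. Gbp10, an interferon-induced GTPase gene, was listed at 1.64e-06 FPKM in Control and 3.02e-09 in AAV-GFP, against 2.23 in Susceptible and 23.1 in AAV-CDYL. Cxcl10, an interferon-induced chemokine gene in a locus shared with another gene, was listed at 0 in Control and 0.0209 in AAV-GFP, against 5.38 and 82.4. Thbs4, Ccl2 and Cd300lf followed.

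In the authors' deposited table for each pair, all 3 genes carry p = 5e-05, the smallest p there, shared by 35 genes of the stress table and 117 of the AAV table. The authors' deposited table gives all 3 q = 0.0225 in the stress pair and q = 0.00727 in the AAV pair. At q under 0.05 the authors' deposited table calls 0.284% of listed genes higher in the stress pair and 0.955% in the AAV pair. It calls 12 genes (0.141% of those listed in both) higher in both. Of the 598 genes, 6 are called in both by the authors' deposited table: the 3 genes with Ccl4, Igkc and Serpina3g. These p-values compare 1 library with another, not the conditions.

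The genes nearest to each of the 3 in level over the 4 libraries were found by Euclidean distance on log2(FPKM + 1) among genes in both tables. For Hcar2 they were Irg1 (0.21), Cd247, Tgm1, Hist1h3h and Ccdc153. For Irg1 they were Ccdc153 (0.12), Cd247, Hcar2, Hist1h3h and Hist1h3b. For Tgm1 they were Dynlrb2 (0.078), Ube2c, Hist1h3h, Hcar2 and Myo1g. Hcar2 is thus among the 5 nearest of both other genes, while Irg1 and Tgm1 are not among each other's. Cd247, the zeta chain of the T-cell receptor, was listed at 0.00201, 1.00, 0.0603 and 2.93 FPKM in Control, Susceptible, AAV-GFP and AAV-CDYL. Dynlrb2, a dynein light chain gene, was listed at 0, 0.524, 0 and 2.84 FPKM.

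No other gene listed within 100 kb of the 3 was at 0 in both reference libraries. Hcar1, the lactate receptor gene 11237 bases from Hcar2, was listed at 0 in Control, 0.0532 in Susceptible, 0.0407 in AAV-GFP and 0.0257 in AAV-CDYL. Ccdc62, also near Hcar2 and in a shared locus, was listed at 0.571 and 1.82 FPKM in the stress pair, higher by size, and at 1.41 and 1.83 FPKM in the AAV pair, not counted. Kctd12, within 100 kb of Irg1, was listed at 11.6 and 16.9 FPKM in the AAV pair and was not higher by size. Within 100 kb of Tgm1, 7 genes were listed in the stress pair and 12 in the AAV pair. Of those at the floor, 1 of 3 was higher in Susceptible and 2 of 8 in AAV-CDYL, beside 18.9% and 31.3% of listed genes at the floor. Rec8, a meiotic cohesin gene, was higher in both, at 0.784 and 2.01 FPKM in the stress pair and 0.607 and 1.68 FPKM in the AAV pair. Irf9, a transcription factor of interferon signalling, was listed at 3.22 FPKM in AAV-GFP and 28.7 FPKM in AAV-CDYL, in a locus shared with another gene. Genes above 0.001 FPKM in both libraries are in the tables only where they differ by at least 0.32 (log2), so a gene that is not listed is not thereby absent or unchanged.

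The counts of gene lists that follow stand beside 18.9% of listed genes at the floor that were higher in Susceptible and 31.3% in AAV-CDYL. The medians over listed genes at the floor were 0.24 and 0.30. Genes that differ little are not listed, so these are not shares or medians over all genes. A gene that reached the floor only through the library where it is high could hardly be lower. Counts over members at 1 FPKM in the reference are therefore also given where they differ from those at the floor. Around the receptor, other receptors for metabolites were mostly low. Of the 13 on the list, 8 were listed in the stress pair and 1 reached the floor, Gpr84, a receptor for medium-chain fatty acids, at 0.405 FPKM in Control and 1.66 in Susceptible. None was at 1 FPKM in Control. In the AAV pair 12 were listed and 4 reached the floor, of which 3 were higher and 1 lower, with a median difference of 1.2, or 0.12 with no floor; 0 of 1 at 1 FPKM in AAV-GFP was higher. Gpr84 was listed at 0.417 FPKM in AAV-GFP and 7.84 in AAV-CDYL, the acid-sensing Gpr65 at 0.0230 and 1.5, and Gpr35 at 0.0862 and 1.33. Of the G proteins, arrestins and receptor kinases, 1 of 4 at the floor was higher in Susceptible (median -0.02 beside 0.24), while 1 of 11 was higher and 1 lower in AAV-CDYL (median -0.43 beside 0.30). Grk4, a receptor kinase, was the gene higher in Susceptible, at 0.665 and 1.79 FPKM, and the gene lower in AAV-CDYL, at 2.04 and 0.705 FPKM. The gene higher in AAV-CDYL was Gnai2, an inhibitory alpha subunit to which such receptors couple, at 104 and 174 FPKM, in a locus shared with another gene. At 1 FPKM in the reference, 0 of 3 were higher in Susceptible, with a median of -0.38. The counts in AAV-CDYL did not change.

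Of the ketone body and monocarboxylate genes, 1 of 6 at the floor was higher in Susceptible. The list's median difference there was -0.33 beside 0.24 over listed genes at the floor. In AAV-CDYL 3 of 7 were higher, led by the lactate exporter Slc16a3 at 1.86 and 5.46 FPKM, and the median was 0.34 beside 0.30. Prostaglandins, not their genes, are what niacin releases in skin through Hcar2. The genes of prostaglandin enzymes and receptors had 2 of 6 higher in Susceptible and 6 of 10 in AAV-CDYL. None was lower by size, and the medians were 0.32 beside 0.24 and 0.86 beside 0.30. Not counted by size, Ptges3 and Ptger1 were listed lower in Susceptible, and Ptgs2 and Ptger3 in AAV-CDYL. At 1 FPKM in the reference, 1 of 4 and 3 of 7 were higher. Ptgds, which makes prostaglandin D2 in brain, was listed at 125 and 592 FPKM in the stress pair and 92.3 and 167 in the AAV pair. Hpgds, the prostaglandin D synthase of blood-derived cells, was listed at 1.91 and 6.55 FPKM in the AAV pair. Tbxas1, thromboxane synthase, was listed there at 0.670 and 4.08 FPKM, in a locus shared with another gene.

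Around Irg1, few genes of the citrate cycle were listed: 5 of 22 in the stress pair (1 higher, 1 lower, median 0.36 beside 0.24) and 4 of 22 in the AAV pair (2 higher, median 0.48 beside 0.30). Idh2, mitochondrial isocitrate dehydrogenase, was higher in both, at 13.6 and 28.6 FPKM and at 15 and 23.5 FPKM, in a locus shared with another gene. Sdha, the flavoprotein of succinate dehydrogenase, was lower in Susceptible, at 515 and 337 FPKM. Suclg2, a succinyl-CoA ligase subunit, was higher in AAV-CDYL, at 7.05 and 18.8 FPKM.

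On the list of itaconate targets, genes downstream of them and its breakdown, 1 of 7 at the floor was higher in Susceptible and 4 of 8 in AAV-CDYL. None was lower by size, and the medians were 0.41 beside 0.24 and 0.52 beside 0.30. Keap1 and the breakdown gene Clybl are not listed in either pair. Not counted by size, Srxn1 (55.1 and 36.7 FPKM) and Aldoa (1644 and 1298) were listed lower in AAV-CDYL. Slc7a11 was listed lower in Susceptible (3.53 and 2.71 FPKM). The other members at the floor were listed higher. The share in Susceptible is no higher than that over listed genes at the floor. At 1 FPKM in the reference 1 of 5 and 2 of 5 were higher. Hmox1, the heme oxygenase that NRF2 induces, was listed at 2.38 and 4.76 FPKM in the stress pair and at 2.36 and 15.2 FPKM in the AAV pair. Nfe2l2, the gene of NRF2, was listed at 3.45 FPKM in AAV-GFP and 18.6 in AAV-CDYL, and Atf3, a stress-induced transcription factor, at 0.508 and 9.29.

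Around Tgm1, 1 other transglutaminase reached the floor, and it was higher in both pairs. Tgm2, the tissue transglutaminase, was listed at 3.05 and 10.7 FPKM in the stress pair and 2.36 and 9.16 FPKM in the AAV pair, in a locus shared with another gene. Genes of the cornified envelope were low: 3 of 23 reached the floor in each pair, with 2 higher in Susceptible (median 1.19 beside 0.24) and 1 in AAV-CDYL (median 0.28 beside 0.30). At 1 FPKM in the reference, 1 of 2 was higher in Susceptible and 0 of 2 in AAV-CDYL. Aloxe3, a lipoxygenase of the skin barrier, was higher in both, at 0.959 and 3.66 FPKM and at 0.879 and 2.43 FPKM. Its partner Alox12b was higher in Susceptible, at 1.74 and 5.25 FPKM, and was listed at 2.75 and 1.63 FPKM in the AAV pair. Of 16 keratinocyte markers 1 reached the floor in each pair and none was higher. Their summed level was 2.41 and 2.99 FPKM in the stress pair and 1.74 and 3.53 FPKM in the AAV pair, and Krt17 and Dsp were listed at 0 in Control, with Krt15, Krt16 and Krt17 at 0 in AAV-GFP.

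**Figure D4:**
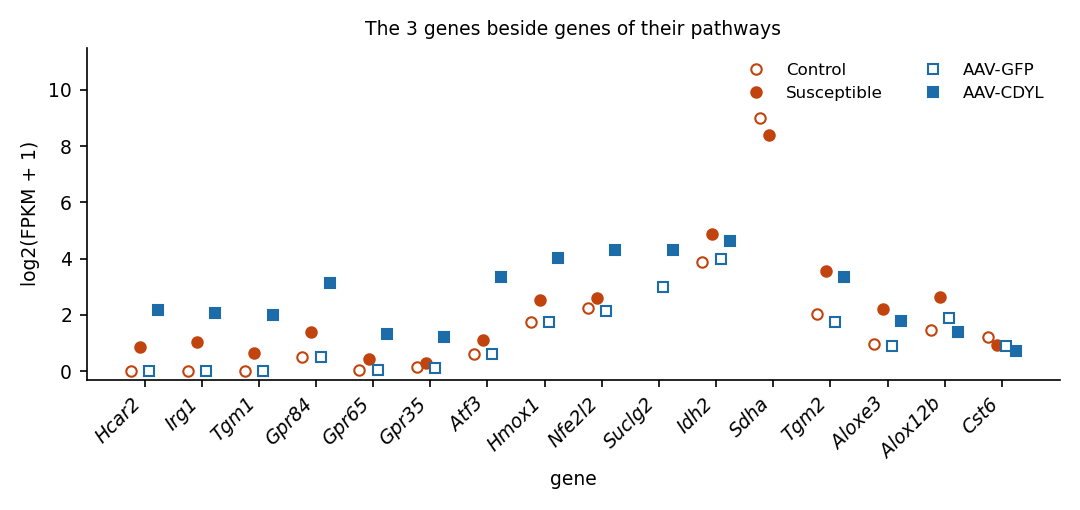
log2(FPKM + 1) of the 3 genes and of genes from the lists around them, up to 3 per list with the largest difference among genes at the floor, in the 4 libraries. Open markers are the reference libraries, where the 3 genes lie at 0, and a missing marker is a gene not listed for that pair.

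Genes that macrophages induce after endotoxin were mostly higher in both pairs. Of 15 at the floor 12 were higher in Susceptible, with a median difference of 1.29 beside 0.24 over listed genes at the floor. Of 20 in the AAV pair 17 were higher, with a median of 1.60 beside 0.30. None was lower by size. Not counted by size, Sod2 was listed lower in both pairs, at 51.1 and 38.8 FPKM and at 48.7 and 34.8 FPKM. Ptgs2 was listed lower in AAV-CDYL, at 5.11 and 3.31 FPKM. The other members at the floor were listed higher. Saa3, an acute-phase protein gene, was listed at 0.251 FPKM in Control and 26.1 in Susceptible, and at 0 in AAV-GFP and 3.19 in AAV-CDYL. Lcn2, an iron-binding acute-phase gene, was listed at 8.27 and 44.4 FPKM and at 0.277 and 8.48 FPKM. Ccl5, a chemokine, was listed at 0 and 0.755 FPKM in the stress pair and at 0 and 151 FPKM in the AAV pair. Among those at 1 FPKM in the reference, 4 of 7 were higher by size in each pair, with medians of 0.59 in the stress pair and 0.98 in the AAV pair.

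Markers of immune cells differed too. In the AAV pair 15 of 16 microglia markers were higher with a median of 1.87, their summed level was 246 FPKM in AAV-GFP and 1630 FPKM in AAV-CDYL, and none was at 0. In the stress pair 4 of 10 microglia markers were lower by size and none higher, with a median of -0.40 and sums of 184 and 170 FPKM. P2ry12, a receptor of resting microglia in a locus shared with another gene, was listed at 25.4 FPKM in Control and 7.85 in Susceptible. Not counted by size, C1qa (41.0 and 55.3 FPKM), C1qb (37.4 and 49.9) and Tyrobp (16.4 and 21.6) were listed higher in Susceptible. Tmem119, Cx3cr1 and Olfml3, also not counted, were listed lower. Monocyte and macrophage markers were higher for 7 of 7 in each pair, with medians of 0.99 and 3.2, sums of 21.1 and 60.5 FPKM and 16.4 and 346 FPKM, and 3 markers at 0 in Control and 2 in AAV-GFP. With no floor the median was 0.70 in the AAV pair, and at 1 FPKM in the reference 4 of 4 were higher in each pair.

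Neutrophil markers were higher for 8 of 10 in Susceptible, with a median of 1.45 and sums of 84.6 and 333 FPKM, and for 3 of 3 in AAV-CDYL, with a median of 0.84 and sums of 2.70 and 11.1 FPKM. The largest part of the AAV-CDYL sum was Csf3r, at 0.935 FPKM in AAV-GFP and 7.60 in AAV-CDYL. Under the floor in the AAV pair, Ltf was listed at 0.520 and 0.0313 FPKM and Ly6g at 0.0613 and 0. Mpo, Cxcr2, Mmp8 and Mmp9, also under the floor, were listed higher in AAV-CDYL. Ngp and Camp, neutrophil granule genes, are not listed in the AAV pair. S100a8, a neutrophil calcium-binding protein gene, was listed at 38.0 and 150 FPKM in the stress pair and 0.771 and 1.74 in the AAV pair. T and NK cell markers were higher for 1 of 1 in Susceptible (sums 0.504 and 2.21 FPKM) and 11 of 11 in AAV-CDYL (1.88 and 38.7 FPKM, median 1.88). B and plasma cell markers reached the floor for 0 genes in the stress pair (0.857 and 0.989 FPKM) and were higher for 5 of 5 in AAV-CDYL (0.750 and 92.9 FPKM, median 1.75). Choroid plexus and meningeal markers were higher for 1 of 3 and 3 of 4, with sums of 3.25 and 6.73 FPKM and of 16 and 37.9 FPKM, and medians of 0.50 and 0.94, or 0.24 and 0.32 with no floor. At 1 FPKM in the reference, 5 of 6 neutrophil markers and 0 of 1 choroid plexus and meningeal marker were higher in Susceptible, and 3 of 3 of the latter and 1 of 1 T and NK cell marker in AAV-CDYL. No neutrophil or B and plasma cell marker was at 1 FPKM in AAV-GFP, so their counts there rest on AAV-CDYL alone. No T and NK cell marker was at 1 FPKM in Control, so the count of these markers in the stress pair rests on Susceptible alone. The part of these cell types in the levels of Hcar2, Irg1 and Tgm1 was not tested.

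**Figure D5:**
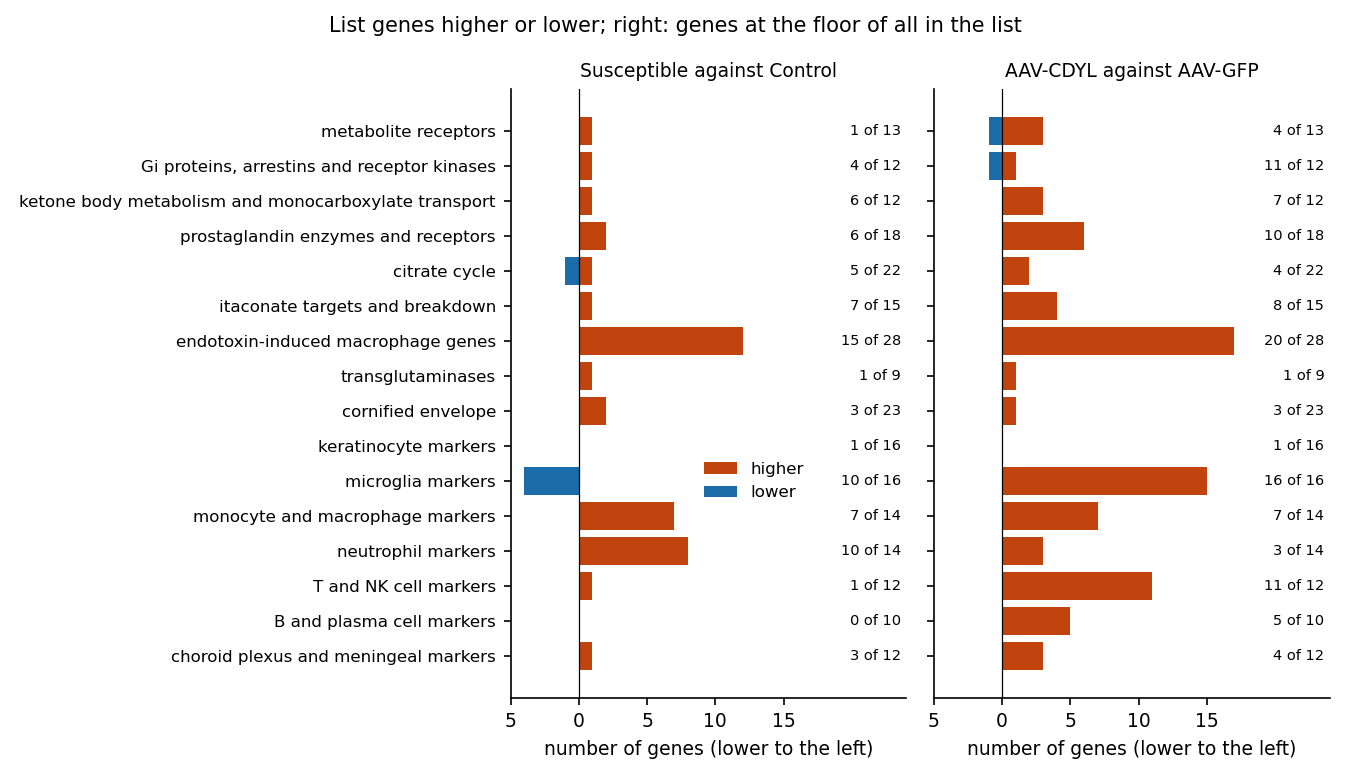
Number of genes of each of 16 lists that were higher (right of 0) or lower (left of 0) by size, for Susceptible against Control and AAV-CDYL against AAV-GFP, with the genes at the floor of all in the list at the right edge. Microglia markers were lower for 4 of 10 in the stress pair and higher for 15 of 16 in the AAV pair.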

How the data were processed

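RNA was extracted with Trizol and sequenced after a NEBNext Ultra preparation, which does not mark strand, per the labels' protocols. The authors deposited 1 table per pair with the FPKM of both libraries, and p-values and q-values of their own comparison, from Cuffdiff on mm10 per the submitters' processing notes. The sources used here do not give the aligner, the annotation or any version. The column of the Susceptible library was matched to its title although its name lacks a letter.

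Hcar2, Irg1 and Tgm1, the 16 gene lists and the rules were chosen with earlier results of these data known. Genes named besides the 3 are Cdyl; the 5 nearest in level to each; the 10 highest under the zero rule (without unnamed and immunoglobulin genes, an exclusion made after seeing the data); family members; up to 3 per list with the largest difference; and genes within 100 kb. A few others are named as examples, chosen after their values were seen, and some genes that the rule takes are not reported here.

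Approximate fragments were derived from the steps of low FPKM values of genes with known transcript length (GENCODE M21), less a fitted mean fragment length of 260 or 280 bases. Among the genes of the zero rule, transcripts too short for that subtraction were given a set minimum length. Between 93.0% and 94.5% of the low values then lay within 0.1 of a whole fragment. Effective depths were 15600000 (Control), 24800000 (Susceptible), 24500000 (AAV-GFP) and 25700000 (AAV-CDYL) fragments, and 95% exact Poisson intervals were taken on the whole fragments. The procedure was tested on simulated data. Differences used a pseudocount of 1 and a floor of 1 FPKM in either library. Alternatives were other pseudocounts, floors and folds, upper-quartile scaling, centring, other zero rules and other transcript lengths. Scripts ran under Python 3.11.15; pandas 2.3.3 and numpy 2.4.6 handled the tables, scipy 1.17.1 the intervals and matplotlib 3.10.9 the figures.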

Additional observations from a re-analysis of the deposited data

How the results depend on the processing

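Hcar2, Irg1 and Tgm1 kept the zero rule in both pairs under each alternative except at least 1 FPKM in the other library, which only Irg1 met. With that rule 93 genes of the stress pair, 275 of the AAV pair and 16 in both passed; at 0.5 FPKM 208, 436 and 39; with named genes only 928, 1002 and 302; and with a reference under 0.1 FPKM 1566 in the stress pair. By size, a floor of 5 FPKM gave 483 genes higher in Susceptible and 1416 in AAV-CDYL. A 2-fold rule gave 366 higher and 136 lower, and 1424 higher and 145 lower. Centring gave 532 and 1918, and 1630 and 3572. These follow from stricter or shifted limits.

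The differences of Hcar2, Irg1 and Tgm1 grew with a smaller pseudocount, to 3.2, 3.55 and 2.77 in the stress pair and 5.16, 5.04 and 4.95 in the AAV pair at 0.1, and to 1.40, 1.65 and 1.11 and 2.99, 2.88 and 2.80 at 0.5. On the shortest protein-coding transcript Tgm1 would rest on 4.29 fragments in Susceptible and 22.9 in AAV-CDYL, so its fragments depend on the transcript assumed. Over all lists 39 genes were higher in Susceptible, 17 at a floor of 5 FPKM and 19 with 1 FPKM in the reference, an alternative chosen after seeing the data; in AAV-CDYL these were 82, 50 and 39, and 2 lower became 1. The median of the prostaglandin list in the stress pair turned to -0.043 under both of these, and that of the cornified envelope list to -0.021 with no floor; the cause was not tested.

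No paired analysis was possible because each group holds 1 library, and for the same reason no library was left out. Control is the shallowest library, at 15600000 fragments, so a 0 there allows a higher level than in AAV-GFP.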

Other observations

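The reverse pattern, above 0 in Control and AAV-GFP and listed at 0 in Susceptible and AAV-CDYL, was found for 117 genes at low levels. The highest named one, the pseudogene Atp5l2-ps, was listed at 1.62 FPKM in Control and 1.03 in AAV-GFP. Tex38 was listed at 0.245 and 0.310 FPKM.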
